A study of Mus musculus with 6 samples.

Results

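Clusters of NOVA1 tags that lay in the 3' UTR of a protein-coding transcript and overlapped a cluster of NOVA2 tags on the same strand were examined in the embryonic mouse cortex. There were 2784 such clusters among 9988 NOVA1 clusters, and 2853 of the 36591 NOVA2 clusters overlapped them. They lay in the 3' UTRs of 1475 genes. Membership was chosen from the readout itself. A NOVA1 cluster was taken when 3' UTR was the class that covered most of it in the GENCODE vM1 annotation and when it shared at least 1 nt with a NOVA2 cluster, so the overlap and the minimum of 10 tags in each list are descriptions of how the clusters were selected. In all, 73.9% (95% Wilson interval, 72.5 to 75.3) of the 3765 NOVA1 clusters in 3' UTRs met the rule. These 2784 clusters are called shared 3' UTR clusters here.

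The tags came from HITS-CLIP, in which protein and RNA are joined in intact tissue by ultraviolet light, the protein is immunoprecipitated and the attached RNA fragments are sequenced. All libraries were made from the cortex of wild-type CD1 mice at embryonic day 18.5, with 3 libraries for NOVA1 and 3 for NOVA2. No group carried a mutation or received a treatment, so the comparison was between the proteins precipitated. The counts of the 3 libraries of a protein had been pooled in 1 list, and a cluster was listed when it held tags of at least 2 of them. The study calls its minimum of 10 tags a peak height, so a count given here as tags may be the height of the cluster at its peak, and a sum over clusters would then be a sum of heights. No value carries a replicate error, because the counts were pooled. The intervals below cover counting error or the spread between clusters, and clusters of the same gene share their RNA.

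Both NOVA proteins are made by neurons and use KH domains to recognise YCAY, where Y is C or T in DNA letters, and they are best known as regulators of alternative splicing. In the 3' UTR, which follows the stop codon, NOVA proteins have been linked to the choice of polyadenylation site and to the handling of mRNA in dendrites. A 3' UTR remains in the mature mRNA, whereas introns are removed by splicing.

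The sequence under the shared 3' UTR clusters was read from the mm9 genome on the strand of each cluster. The stretches below are shown because they were among the richest in YCAY within 30 nt, and they make visible how such tetramers follow one another. They come from 8 of the 13 clusters with at least 7 YCAY in such a stretch. Of the other 5, 2 (one of them as rich as the richest shown) were left out with their whole chromosome, and the others had 7 YCAY with fewer NOVA1 tags than those shown. All are written 5' to 3', with the bases of each YCAY in capitals.
Mdga1, chr17:29967631-29967660, minus strand: taTCATCATCACCACCACCACCATCACCAT
Gsg1l, chr7:133023622-133023651, minus strand: CCATCCATTCACCATCCACTCACCCATCAT
Akap7, chr10:24889804-24889833, minus strand: ggTCATCATCACCATtaTCACCATCATCAC
Igfbp4, chr11:98913184-98913213, plus strand: atTCATTCATTCATTCATTCATTCATCCAC
Gsg1l, chr7:133023522-133023551, minus strand: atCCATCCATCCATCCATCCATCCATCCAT
Stk32b, chr5:37838620-37838649, minus strand: ccTCATatttaTCATCATCACCACCATCAT
Adam19, chr11:45958022-45958051, plus strand: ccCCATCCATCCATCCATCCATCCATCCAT
Chrna7, chr7:70243535-70243564, minus strand: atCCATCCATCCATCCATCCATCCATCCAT

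The Mdga1 stretch held 9 YCAY, the first Gsg1l stretch and Akap7 held 8, and the remaining ones held 7. Mdga1 encodes an adhesion molecule of the immunoglobulin superfamily, Gsg1l an auxiliary subunit of AMPA receptors, and Chrna7 the alpha 7 subunit of the nicotinic acetylcholine receptor. The Gsg1l, Adam19 and Chrna7 stretches with 7 YCAY were repeats of CCAT, and Igfbp4 held a repeat of TCAT. These stretches were not those with the highest tag counts. The NOVA1 cluster of Mdga1 had 93 tags and its NOVA2 cluster 174, the Akap7 clusters had 36 and 101, and the Chrna7 cluster had 44 against 51 tags over its NOVA2 clusters.

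The clusters with the highest tag counts looked different. For comparison, the richest 30 nt of 3 of the 10 strongest NOVA1 clusters are shown in the same way.
Shisa7, chr7:4779459-4779488, minus strand: cTCACcTCATCACctcccagcatCCATCAC
Gabbr1, chr17:37210146-37210175, plus strand: tttCCATataattttataTCACCACtTCAC
App, chr16:84955501-84955530, minus strand: aCCATtgctTCACtacCCATcggtgtTCAT
They held 5, 4 and 4 YCAY. Their clusters were long, and Shisa7 held 116 YCAY over 2499 nt, Gabbr1 26 over 1198 nt and App 16 over 912 nt. Across all shared 3' UTR clusters the richest 30 nt held 2 YCAY in 43.1% of clusters and 3 in 27.9%, while 58 clusters (2.08%) reached 5 or more.

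YCAY was present in 98.8% (98.3 to 99.2) of shared 3' UTR clusters, with a median of 4 per cluster and quartiles of 3 and 6. The 33 clusters without any YCAY made up 1.19%. The motif is short, and 90.2% of all 150 nt windows tiled over annotated 3' UTRs held it, against 98.7% of 150 nt windows centred on the clusters, so density tells more than presence. Windows with at least 3 YCAY within 30 nt made up 34.3% (32.6 to 36.1) of those on shared clusters and 12.5% of the 162461 tiled windows. With at least 5 the shares were 1.54% and 0.303%.

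For 1312 clusters a window of the same length lay beside them in the same 3' UTR exon without touching a cluster of either list. These clusters held 28 YCAY per 1000 positions and the adjacent windows 14.5, a fold of 1.93 (1.85 to 2.01, from the counts of 6021 and 3661 YCAY). The fold was 1.61 (1.53 to 1.69) at 3' UTR clusters of NOVA1 alone and 2.08 (2 to 2.17) at those of NOVA2 alone. The difference between these groups was not tested, since clusters are not replicates. Within the shared clusters the bases that the NOVA2 cluster also covered held 30.4 YCAY per 1000 positions, and the remaining bases of the NOVA1 cluster held 17.4. The latter value was near the 16.9 of all 3' UTR sequence and above the 14.5 of the windows adjacent to 1312 of the clusters. In shared clusters YCAY also fell with distance, from 37.6 just upstream of the midpoint to 18 at 80 to 89 nt downstream. The part of position within the cluster in the lower density of the remaining bases was not tested.

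**Figure D1:**
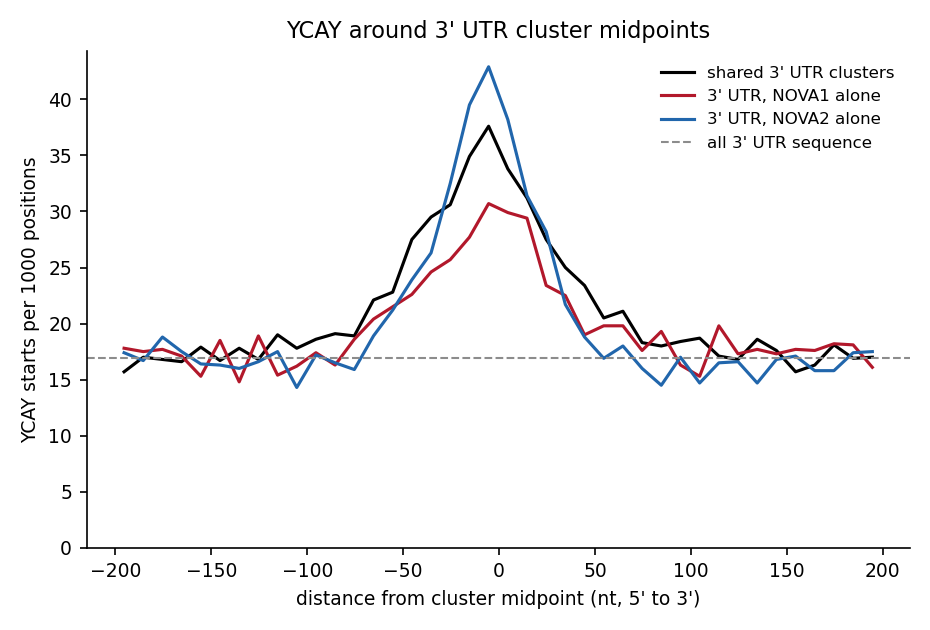
YCAY starts per 1000 positions (vertical axis) in bins of 10 nt by distance from the cluster midpoint (horizontal axis, nt, 5' to 3') for shared 3' UTR clusters (black), 3' UTR clusters of NOVA1 alone (red) and of NOVA2 alone (blue), with the value of all 3' UTR sequence as a dashed line. The curve of the shared clusters peaked at 37.6 just upstream of the midpoint, between 42.9 for NOVA2 alone and 30.7 for NOVA1 alone, and all 3 lay near the dashed line at 200 nt.

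The 4 forms of YCAY were not alike. TCAT ranked first of all tetramers in shared clusters over adjacent windows, with a log2 ratio of 1.52 from 2323 and 948 occurrences. TCAC ranked 3 at 1.10 and CCAT ranked 8 at 0.75. CCAC ranked 98 at 0.06, from 849 occurrences in clusters and 954 beside them. The tetramers CATC, TTCA and CATT, which overlap TCAT by 3 bases, were also among the first 5, and the lowest ranks went to G-rich tetramers such as GGGA at -0.95. The density of YCAY varied little with the tag count. It was 28.6 per 1000 positions in the 696 clusters with the fewest NOVA1 tags (10 to 14) and 26.5 in the 696 with the most (42 to 2442), whereas the median width rose from 111 to 267 nt.

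Other motifs were searched on the cluster strand. The polyadenylation signal AATAAA was held by 12.6% (11.4 to 13.9) of 150 nt windows on shared 3' UTR clusters, by 7.44% of those on NOVA1 clusters alone, by 13.1% of those on NOVA2 clusters alone and by 9.55% of tiled windows. Per position its frequency in the clusters did not differ from that beside them by more than the counting error, with a fold of 1.1 (0.895 to 1.36). This fold and those below come from the 1312 clusters with an adjacent window, and the window shares from all 2784. Adjacent windows that ran past the annotated 3' UTR were not used, so sequence at its end is less well covered by the folds. The folds of the variant signal ATTAAA, at 1.11 (0.877 to 1.4), the Rbfox motif TGCATG, at 1.19 (0.905 to 1.55), and the Quaking motifs ACTAAC and ACTAAT, at 1.01 (0.762 to 1.35), likewise had intervals that held 1. Tiled windows held these motifs in 7.38%, 5.03% and 4.78% of cases and windows on shared clusters in 9.2%, 6.65% and 5.28%. The AU-rich ATTTA was in 28.8% and 20.9%, with a fold of 1.16 (1.02 to 1.31). The Pumilio motif TGTANATA occurred in 5.32% of windows on shared clusters against 2.97% of tiled windows, with a fold of 1.3 (0.951 to 1.78) over adjacent sequence. Runs of T stood apart in another way. TTTTT was held by 41.5% of windows on shared clusters and by 29.6% of tiled windows, yet per position it was rarer in the clusters than beside them, with a fold of 0.671 (0.628 to 0.718). A match is a description of the letters and not a binding site.

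Shared 3' UTR clusters were stronger than those found for either protein alone, a difference that the rule favours, since a cluster with more tags is more easily listed for both. Their NOVA1 tag count had a median of 22 with quartiles of 14 and 42 and a maximum of 2442. The 981 NOVA1 clusters in 3' UTRs without NOVA2 overlap had a median of 13 tags. The shared clusters held 119902 tags, which was 88.9% of the tags in 3' UTR clusters of NOVA1 and 39.4% of the tags in the whole list. Their 2853 NOVA2 partners held 13.8% of the tags of the NOVA2 list. The strongest 10%, 278 clusters, held 45.9% of the NOVA1 tags, and 166 clusters sat at the threshold of 10 tags.

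Of the shared 3' UTR clusters, the one with the highest count for either protein lay in the 3' UTR of Shisa7, which encodes an auxiliary protein of synaptic neurotransmitter receptors (chr7:4777957-4780455, minus strand). It had 2442 NOVA1 tags, and the NOVA2 cluster inside it had 5467. Gabbr1, the GABA-B receptor subunit, had 1353 and 2134 tags over nearly the whole of a 3' UTR of 1281 nt (chr17:37210053-37211250, plus strand). Cpe, the prohormone-processing carboxypeptidase E, had 1127 and 1909 tags, likewise over nearly all of its 568 nt (chr8:67071373-67071908, minus strand). Gpm6a, a neuronal membrane glycoprotein, had 904 NOVA1 tags in 1 cluster and 2452 NOVA2 tags in 3. These 4 genes were among the highest 10 for either protein.

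Other NOVA1 clusters of the highest 10 lay in App (789 tags, with 793 for NOVA2), in Epb4.1l1, a protein 4.1 of the membrane skeleton (614 and 986), in Basp1, a growth cone protein (593 and 372 over 2 clusters), and in the small GTPase gene Rab10 (550 and 864 over 3). A further one lay in Lars2, a mitochondrial leucyl-tRNA synthetase, with 1539 NOVA1 and 76 NOVA2 tags. The Lars2 sequence has 6 further copies in the genome, so the source of these tags is uncertain. The highest NOVA2 counts outside these genes were those over Ptms (1501), Celf2 (1468), D0H4S114 (1152, a single cluster that overlapped 2 shared clusters), Fnbp1l (1146) and Npy, the neuropeptide Y gene (1092), where NOVA1 had 339, 233, 251 and 149, 434 and 233 tags.

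The positions of both proteins were close. The NOVA2 clusters covered a median of 86.9% (quartiles 65.4 and 100) of the NOVA1 cluster, and the median overlap was 116 nt in clusters of 153 nt. Of the shared clusters, 2507 (90.1%) overlapped 1 NOVA2 cluster and 277 overlapped several, up to 4. In 2152 cases (77.3%) the pairing was one-to-one. There the NOVA2 midpoint lay a median of 0 nt from the NOVA1 midpoint with quartiles of -19.5 and 19.5 nt, and 83.3% of midpoints were within 50 nt of each other. All 2152 pairs were assigned to the same gene, and in 2146 the NOVA2 cluster was also in the 3' UTR.

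At the edge of the rule, 14 shared clusters overlapped NOVA2 by fewer than 10 nt. The smallest overlaps were in Araf (1 nt, 11 NOVA1 and 77 NOVA2 tags), Prmt2 (2 nt, 16 and 50 tags), and Tspyl4 and Lrfn5 (3 nt each). Just outside the rule, 25 NOVA1 clusters in 3' UTRs ended less than 10 nt from a NOVA2 cluster, and those in Mylip (15 tags), Cadm3 (12 tags) and Ppme1 (12 tags) were among those that abutted one with a gap of 0 nt.

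Shared 3' UTR clusters were compared with other shared clusters in one-to-one pairs by the log2 ratio of tags, NOVA1 over NOVA2. Such a ratio does not measure how much of either protein a site carried. The counts were used unscaled, and the lists were not equally deep, so the sign of a ratio depends on the scaling and only differences between pairs are free of it. At the 2152 shared 3' UTR clusters the median was -0.40 (-0.45 to -0.35) with an SD of 0.94 between clusters. It became 0.95 when the counts were scaled by the unique tags of each protein and 1.70 when they were scaled by the tags summed over each list. Counting error alone would give an SD of 0.44. The tag counts of both proteins rose together, with a Spearman correlation of 0.58 across these pairs, which share the abundance of their transcripts and are not independent replicates.

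More NOVA1 than NOVA2 tags were counted at 32.2% (30.3 to 34.3) of the shared 3' UTR clusters in one-to-one pairs, where the background over all 6770 pairs of any class was 14.8% and that of the 3452 intron pairs was 2.03%. With the scaling by unique tags these shares were 84.9% for shared 3' UTR clusters, 50.3% for all pairs and 24.7% for intron pairs, so the order was kept while each share rose. In the unscaled counts an excess of NOVA1 of at least 2-fold was found at 129 shared 3' UTR clusters, or 5.99% against a background of 3.1%, and an excess of NOVA2 at 547, or 25.4% against 59.9%. This imbalance turned with the scaling. By unique tags there were 1035 (48.1% against 24.1%) with an excess of NOVA1 and 50 (2.32% against 21.6%) with an excess of NOVA2, and by list sums there were 1693 (78.7% against 43.2%) and 6 (0.279% against 6.5%). The pairs in 3' UTRs are part of this background.

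**Figure D2:**
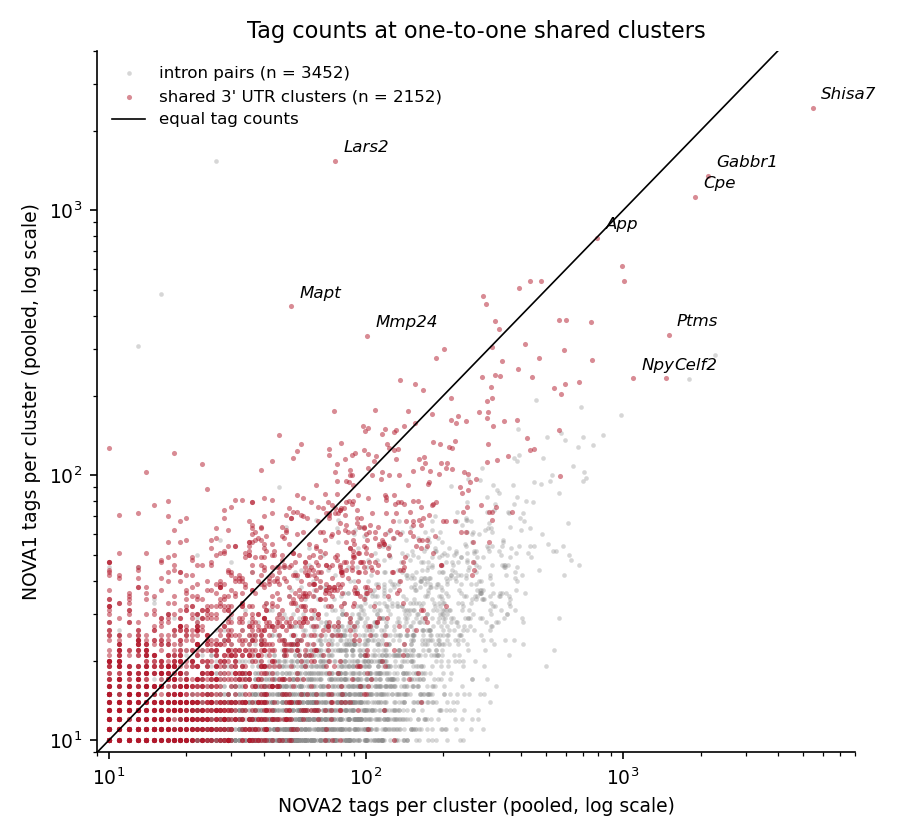
NOVA1 tags (vertical axis) against NOVA2 tags (horizontal axis) at one-to-one pairs, both as pooled unscaled counts on log scales, with 2152 shared 3' UTR clusters in red, 3452 intron pairs in grey and a line at equal counts. The 3' UTR pairs straddled the line, with 32.2% above it, whereas 2.03% of the intron pairs were above it, and a scaling of the counts would move the line and not the points relative to each other.

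The comparison was repeated within genes, which holds the gene constant but not the levels of its spliced and unspliced RNA. In 363 genes both shared 3' UTR clusters and shared intron clusters were found in one-to-one pairs, 701 and 1294 pairs in all. The median log2 ratio was higher in the 3' UTR in 329 of these genes (90.6%, 87.2 to 93.2) and lower in 34. The median difference was 1.59 (1.47 to 1.72), and it was at least 2-fold, or 1 on the log2 scale, in 251 genes. This difference does not change with the scaling. The amounts of spliced and unspliced RNA in each gene were not measured in these libraries, and their part in the difference was not tested.

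In Cadm2, a synaptic adhesion molecule, 8 pairs in the 3' UTR had log2 ratios from -1.91 to 0.19 and 29 pairs in introns from -3.21 to -0.90, with medians of -0.36 and -2.40. In Celf2, an RNA-binding protein, the medians were -1.19 over 6 pairs and -2.90 over 23. In Gria2, the AMPA receptor subunit whose mRNA is edited, they were -0.52 over 6 and -2.70 over 8, although the tags in its 3' UTR were few, with 10 to 22 for NOVA1 and 13 to 34 for NOVA2. In Ank3, ankyrin-G of the axon initial segment, they were 0.80 over 5 and -1.42 over 13. The ranges of the 2 classes overlapped in all 4 genes. These genes had the most pairs in the class where they had fewer, and the tie at 5 was settled by the number of intron pairs. The largest differences in the opposite direction were in Pde4dip (-2.05), Dusp11 (-1.82) and Arid2 (-1.53), each with 1 or 2 pairs in either class.

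**Figure D3:**
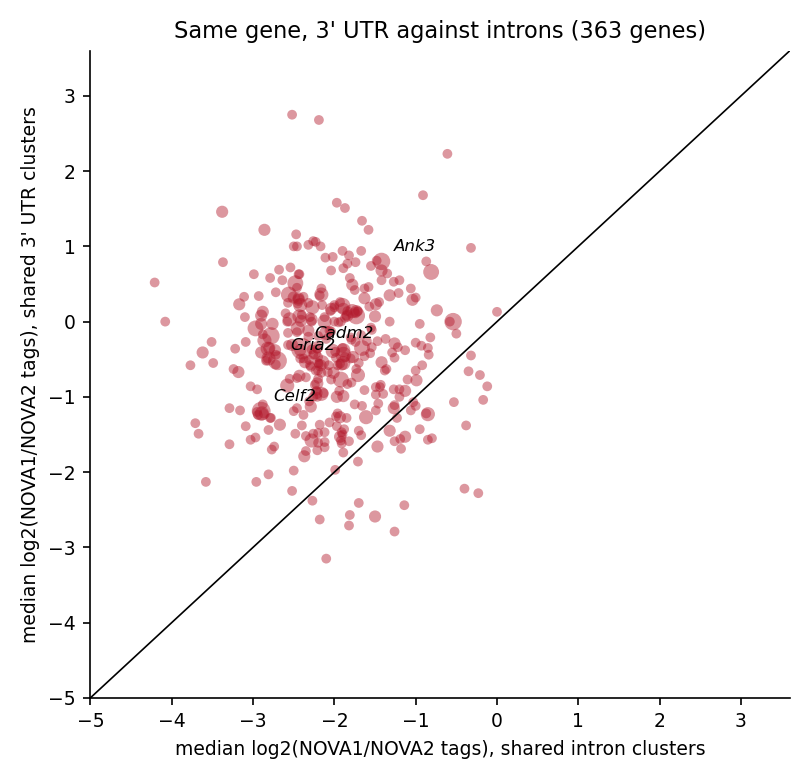
Median of the log2 tag ratio, NOVA1 over NOVA2, at shared 3' UTR clusters (vertical axis) against that at shared intron clusters (horizontal axis) of the same gene, for 363 genes, with larger points for genes with more pairs and a line where both are equal. Of these genes, 329 lay above the line and 34 below it.

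The ratio also varied from cluster to cluster among the 3' UTRs. Of the 289 one-to-one clusters with at least 50 tags in each list, the highest ratios were those of Lars2 (4.34, with further copies as described), Mapt (3.09), Mmp24 (1.73), Cxadr (1.23), Zwint (1.22) and Ank2 (1.20). The lowest were those of Celf2 (-2.66), Spnb2 (-2.52), Ash1l (-2.42), Kif21b (-2.34), Npy (-2.23) and Sept3 (-2.22). The intervals from counting error did not reach from one end to the other. That of the Mapt cluster ran from 2.67 to 3.54 and that of the Celf2 cluster from -2.86 to -2.46, while neighbours in the order such as Cxadr, Zwint and Ank2 had intervals that overlapped almost wholly. Mapt and Spnb2 encode the microtubule protein tau and a spectrin, Ank2 an ankyrin, Kif21b a kinesin and Sept3 a septin. Single clusters in genes of the cytoskeleton were thus found at both ends. Other clusters of the same gene could differ. In Kif21b, one-to-one clusters with fewer than 50 NOVA2 tags had ratios of 2.88 and 0.86. Medians over the one-to-one 3' UTR pairs were 2.68 in Mapt, 0.36 in Ank2, -0.31 in Spnb2 and -1.19 in Celf2.

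In Mapt, the tau gene, most tags throughout the 3' UTR were of NOVA1. Its 3 shared clusters had 110, 435 and 464 NOVA1 tags over 743, 1368 and 1774 nt, and the NOVA2 clusters in them had 23, 51 and 34 tags. The NOVA1 clusters thus spanned most of a 3' UTR of 3906 nt, and 271 nt of the 1368 were covered by NOVA2. Mmp24, a membrane metalloproteinase, had 336 NOVA1 and 101 NOVA2 tags in clusters that coincided over 192 of 219 nt. The 538 widest NOVA1 clusters of the one-to-one pairs had a median ratio of -0.09 (-0.24 to 0), against -0.49 (-0.57 to -0.39) in the 538 narrowest. Width rose with the NOVA1 tag count, which is also the numerator of the ratio, so width and ratio are not independent.

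Clusters of 1 gene also differed among themselves. In 188 genes with at least 3 one-to-one clusters the median SD of the log2 ratio within a gene was 0.64, counting error included, and the median range was 1.42. The SD between the medians of these genes was 0.68. Both Shisa7 clusters illustrate this, the main one with 2442 NOVA1 and 5467 NOVA2 tags (-1.16) and the one beside it with 62 and 18 tags (1.78). The ratio was little related to position in the 3' UTR, with medians of -0.34, -0.34 and -0.49 in its first, middle and last part when cut into 3 of equal length.

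The ratio went with base composition. In 150 nt windows the 538 one-to-one clusters with the lowest share of T (median 28%) had a median log2 ratio of 0.00 (-0.14 to 0.07), and the 538 with the highest share (median 40.7%) had -0.74 (-0.81 to -0.64), with -0.31 and -0.45 in the groups between them. The Spearman correlation was -0.26 over 2152 clusters. The same ratio had a correlation of -0.31 with the sum of both tag counts. Ratio and sum are made from the same counts, so they can be related without any difference between sites. These relations were looked at after the values had been seen, and the part of crosslinking, amplification or transcript abundance in them was not tested. Windows on clusters of NOVA1 alone held 30% T on average, those on shared clusters 34.2% and those on clusters of NOVA2 alone 35.9%, against 29.4% in all 3' UTRs.

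Many 3' UTRs carried several shared clusters. Of the 1475 genes, 872 held 1 cluster, 298 held 2, 137 held 3 and 168 held at least 4. The midpoints of neighbouring clusters were a median of 432 nt apart with quartiles of 249 and 860 nt. The clusters of a gene covered a median of 10.6% of its 3' UTR. The same 3' UTRs also held clusters of a single protein, with NOVA1 alone in 387 genes (26.2%) and NOVA2 alone in 495 (33.6%). Among all 21942 protein-coding genes with a 3' UTR, 725 and 1102 held such clusters. The 3' UTRs of genes with shared clusters were longer, with a median of 2470 nt against 709 nt, and the part of length in these shares was not tested.

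Dcx, the doublecortin gene of migrating neurons, held the most, 15 clusters over 7712 nt. They had 10 to 216 NOVA1 tags, 839 in all, and their NOVA2 clusters had 1506. The 2 strongest, with 216 and 180 NOVA1 tags, lay side by side and overlapped the same NOVA2 cluster of 604 tags. Ratios in its 8 one-to-one clusters ran from -2.47 to 0.33. Next were Taok1, a kinase (14 clusters, 251 NOVA1 and 420 NOVA2 tags), Tmod2, the neuronal tropomodulin (13, with 1007 and 1651), Impad1 (12, with 273 and 391), Cadm2 (11, with 677 and 973), and Dclk1, a doublecortin-like kinase (10, with 452 and 682). Chl1, an adhesion molecule of the L1 family, also held 10. The annotated 3' UTRs of the first 6 were between 5223 and 10292 nt long.

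The 3' UTRs of the NOVA genes themselves were among those bound. In Nova1 there were 7 shared clusters with 306 NOVA1 and 198 NOVA2 tags, and 5 of the 7 ratios were above 0. In Nova2 there were 9 with 217 and 764 tags, and 4 of the 5 one-to-one ratios were below 0, so that each 3' UTR carried more tags of its own protein in the unscaled counts. Over the summed tags the log2 ratio was 0.63 in Nova1 and -1.82 in Nova2, and the latter became -0.47 scaled by unique tags and turned to 0.29 scaled by list sums.

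**Figure D4:**
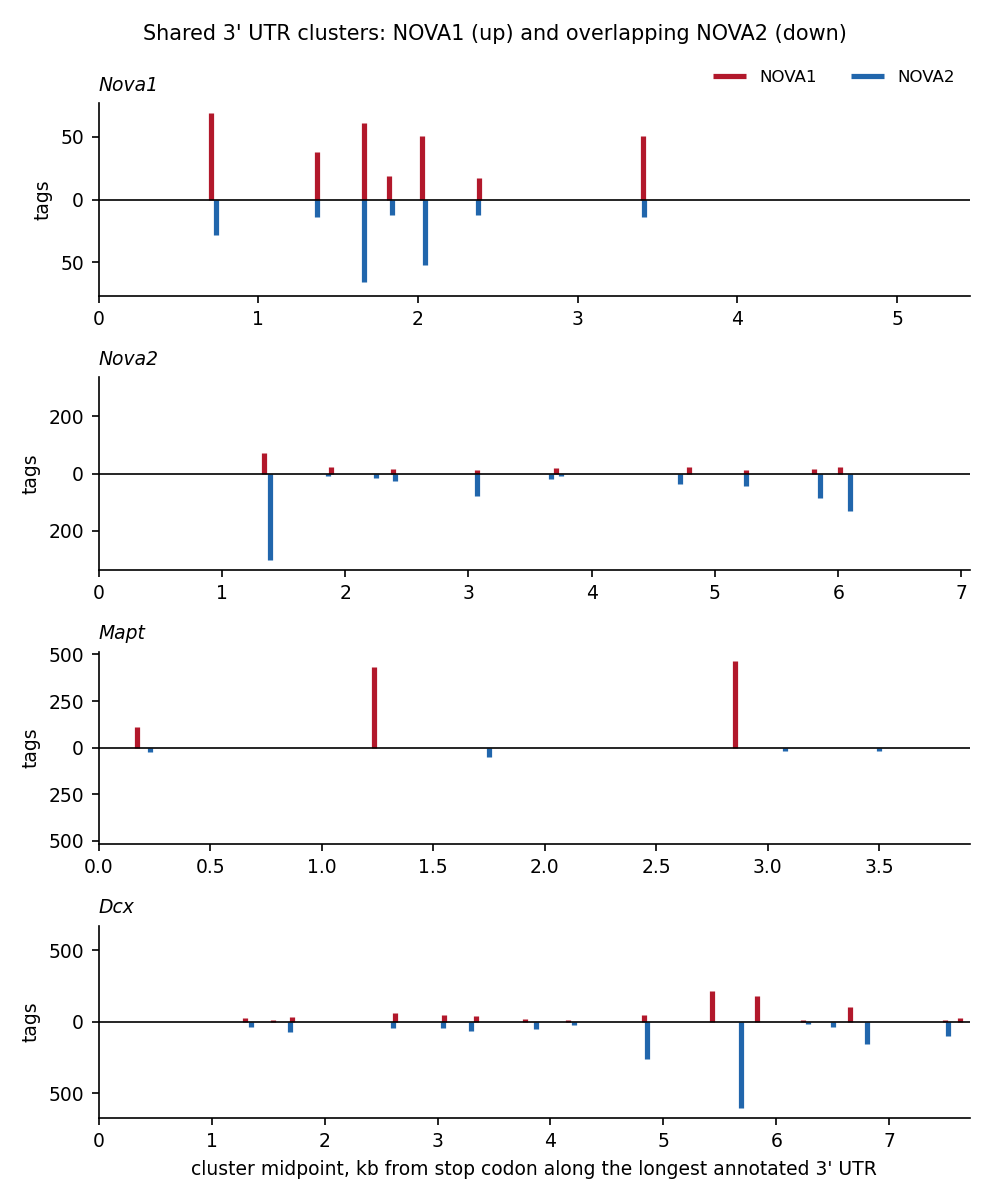
Shared clusters in the 3' UTRs of Nova1, Nova2, Mapt and Dcx, with the midpoint in kb from the stop codon along the longest annotated 3' UTR (horizontal axis) and pooled unscaled tag counts (vertical axis) of NOVA1 clusters upwards in red and of overlapping NOVA2 clusters downwards in blue. NOVA2 bars as high as 302 and 604 stand in Nova2 and Dcx, whereas in Mapt the NOVA1 bars reach 464 and the NOVA2 bars at most 51.

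Shared clusters were found along the whole 3' UTR. The median relative position was 0.541 (0.523 to 0.557), where 0 is the stop codon and 1 the annotated end, in the shortest annotated 3' UTR that held the midpoint. Of 10 parts of equal length, the first held 6.21% (5.38 to 7.17) of clusters and the last 13.1% (11.9 to 14.5). Part of this slope came with the choice of the shortest 3' UTR. In the longest one the median was 0.502 (0.482 to 0.524), and the first and last parts held 8.26% (7.3 to 9.34) and 11.9% (10.7 to 13.1). In the shortest 3' UTR, clusters of NOVA2 alone had a similar course, from 6.25% to 15.4%, whereas those of NOVA1 alone held 8.26% in the first and 9.17% in the last. The difference between these groups was not tested. Shared clusters lay a median of 882 nt before the annotated end, and 17.2% were within 200 nt of it, against 12.8% for NOVA1 alone and 18.4% for NOVA2 alone.

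**Figure D5:**
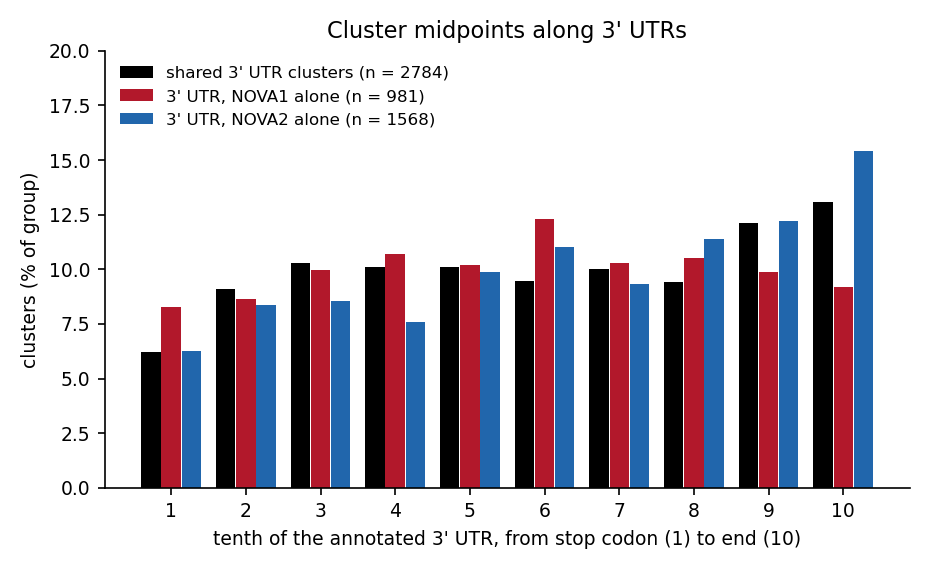
Share of clusters (vertical axis, percent of each group) in 10 equal parts of the annotated 3' UTR from the stop codon to the end (horizontal axis) for shared 3' UTR clusters (black, n = 2784), NOVA1 alone (red, n = 981) and NOVA2 alone (blue, n = 1568). The bars of the shared clusters rise from 6.21% to 13.1%, and those of NOVA1 alone end at 9.17%.

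The share of genes with a shared cluster rose with the length of the 3' UTR. Of 21942 protein-coding genes with a 3' UTR, 1475 (6.72%) did. The share was 0.787% for 3' UTRs of up to 500 nt, 4.3% for 501 to 1000 nt, 7.73% for 1001 to 2000 nt, 15.6% for 2001 to 4000 nt and 34.2% (31.4 to 37.1) above 4000 nt. Gene lists are therefore given beside the number of genes that would hold a cluster at the share of each gene's own length class. RNA abundance was not analysed here, and its part in these counts was not tested. Lists and classes were set against the background of 6.72%, and no test was made of any list.

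Genes of the cytoskeleton and of adhesion held the most. Of 40 genes for microtubule proteins and motors, 27 held shared clusters, against 5.5 at the shares of their length classes. They had 97 clusters with 7520 NOVA1 and 7168 NOVA2 tags and a median log2 ratio of 0.30. Mtap1b, a microtubule-associated protein of growing axons, had 9 clusters with 1179 and 804 tags, and the strongest single cluster lay in Kif5c, a kinesin heavy chain (539 and 435). Of 41 neural cell adhesion genes, 25 held clusters against 6.5, led by Chl1 (793 and 1359 tags in all), Cadm2, Pcdh10 (640 and 618) and Lsamp (607 and 776). Of 65 axon guidance receptors and ligands, 21 held clusters against 8.6. The strongest lay in Epha5, an ephrin receptor (313 and 415), and the Plxna4 cluster, in a plexin receptor for semaphorins, had 121 and 18 tags with a ratio of 2.75.

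Genes of the synapse were also common. Of 19 genes for GABA and glycine receptors, 11 held shared clusters against 2.4, among them Gabbr1 as given, Gabrb2 (411 and 702 tags) and the glycine receptor subunit Glrb (135 and 88, with a median ratio of 1.05). Of 18 ionotropic glutamate receptor genes, 4 did so against 2.5, and their tags were fewer, at 183 and 288 in all, with the strongest cluster in Grik3 (53 and 105). Of 39 genes of presynaptic vesicle release, 21 held clusters against 6.0, with Rab3c (393 and 869 tags over 8 clusters) first in total. Of 31 genes for postsynaptic scaffolds and adhesion, 11 did so against 4.0, and Shisa7 supplied 2504 of their 2833 NOVA1 tags.

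Ion channels were taken by family. Of 28 calcium and sodium channel genes with a 3' UTR, 10 held shared clusters against 4.1, and the strongest was in the sodium channel gene Scn2a1 (252 and 391 tags). Of 45 potassium and HCN channel genes, 6 did so against 5.5, with 139 and 128 tags in all. A list of signalling genes held calmodulins, calmodulin-dependent kinases, calcineurin and subunits of protein kinases A and C. Of its 30 genes, 15 held clusters against 4.2. The strongest cluster was in Prkacb, a catalytic subunit of protein kinase A (378 and 749 tags).

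Regulators of RNA and of transcription had the lowest median ratios among the lists with a median. Other lists were also below the -0.40 of all shared 3' UTR clusters. These were ionotropic glutamate receptors (-0.52 over 8 one-to-one clusters), postsynaptic scaffolds and adhesion (-0.49 over 13) and the signalling genes above (-0.44 over 28). Of 44 RNA-binding proteins of neurons, 20 held shared clusters against 7.2, with 2200 NOVA1 and 5477 NOVA2 tags and a median log2 ratio of -0.61 over 45 one-to-one clusters. Celf2 alone had 694 and 2785 of these tags. Rbfox2, a splicing regulator, had 203 and 373, and Ptbp2, the neuronal PTB protein, 79 and 238. Of 34 cortical neuron transcription factors, 15 held clusters against 5.9, with 561 and 1893 tags and a median of -1.62 over 19. Zeb2 (60 and 336), Tcf4 (46 and 268) and Sox4 (64 and 271) had median ratios of -2.49, -2.59 and -1.93, each over 2 one-to-one clusters. The difference of these lists from the -0.40 of all shared 3' UTR clusters was not tested.

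Markers of cell types were looked up among the genes with shared clusters. Both NOVA proteins are made by neurons, so these counts cannot check the cell make-up of the tissue. Of 40 neuronal markers, 20 held shared 3' UTR clusters against 6.7 at the shares of their length classes, and 15 of these 20 belong to the transcription factors counted above. Among the 20 were Dcx, Tubb3, Map2, Snap25 and the transcription factors Tbr1, Bcl11b and Foxp2. Of 29 markers of glia, vessels and blood, 2 did so, Slc1a2 and Slc1a3, against 3.2 at the shares of their length classes. Both encode glutamate transporters, and the strongest cluster, in Slc1a2, had 104 and 153 tags. Of 136 ribosomal protein genes, whose 3' UTRs have a median of 48.5 nt, Rps15a (18 and 101 tags) and Rpl15 (10 and 33) did so.

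Genes with a shared 3' UTR cluster were also looked up among the intron clusters. A NOVA2 intron cluster was listed in 874 (59.3%) and a NOVA1 intron cluster in 411 (27.9%) of the 1475 genes, against 18.1% and 5.76% of all 21942 genes. Among genes with a 3' UTR above 2000 nt the shares were 66.8% and 33.4% of the 889 with a shared cluster, against 40.5% and 15.4% of all 4422. The part of gene length and RNA abundance in these shares was not tested. In 203 shared clusters (7.29%) the sequence had a further copy in the genome (90% identity or more along 50% of the cluster or more), and without these the median ratio of the one-to-one clusters was -0.41.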

How the data were processed

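HITS-CLIP of NOVA1 and NOVA2 was analysed from the cluster lists of the authors, who aligned the reads to mm9, with Novoalign named in the submitters' notes, and pooled 3 libraries per protein. Each deposited cluster has a pooled tag count. The study terms the minimum of 10 tags a peak height, and whether the deposited count is that height or all tags was not settled here. The cluster caller is not given in the sources used here. Annotation was GENCODE vM1 on NCBIM37, and 0 clusters ended past a chromosome end. Classes were taken in the order coding sequence, 3' UTR, 5' UTR, noncoding exon, intron. Shares have Wilson intervals and medians exact order-statistic intervals at 95%. Intervals of tag ratios of single pairs are exact binomial (Clopper-Pearson), and those of motif folds are from the counts. The study removed PCR duplicates to obtain unique tags. Any duplicates that remained would not be independent molecules, and intervals cover counting error only. Further copies were sought with BLAST+ 2.17.0 (megablast, word size 20). Other steps used Python 3.11.15, SciPy 1.17.1 and pysam 0.24.0 and were tested on simulated data. Named genes were those with the highest counts, the extreme ratios at 50 or more tags, the most clusters or the most YCAY, the strongest of each list and those with most pairs in both classes. Members, lists and this rule were chosen with earlier results of these data known. No test was made across clusters, because the pooled counts hold no replicates. Some genes that the rule named are not reported here.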

Additional observations from a re-analysis of the deposited data

How the results depend on the processing

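Of 35 recalculations of 8 results, 15 stayed within the main interval or within 1.5 times the main count, 18 moved beyond it and 2 reversed. The reversed ones were of the median log2 tag ratio, -0.40 unscaled, 0.95 scaled by unique tag totals and 1.70 scaled by list sums, and the share with more NOVA1 tags went from 32.2% to 84.9% and 96.1%. At 20 or more tags in both lists there were 1324 shared 3' UTR clusters (2784 before), 77% of 3' UTR clusters of NOVA1 overlapped NOVA2 (73.9% before), the median ratio was -0.50, 28.4% had more NOVA1 tags, 95.1% of genes had the higher ratio in the 3' UTR (90.6% before) and 3.76% of genes held a cluster (6.72% before). With NOVA2 at 25 or more tags there were 1712 clusters and 45.5% overlapped. An overlap of 50% of the shorter cluster gave 72%. With the NOVA2 tags of all partners summed, the median ratio was -0.52 and 28.2% had more NOVA1 tags. In genes with at least 2 pairs in each class, 94.8% had the higher ratio in the 3' UTR. The fold of YCAY was 1.8 against all unbound 3' UTR of the same genes and 2.24 in the NOVA2-covered part alone (1.93 before). The longest 3' UTR gave a median position of 0.502 (0.541 before), and 13.9% of genes with a 3' UTR of at least 1000 nt held a cluster. The cause of these shifts was not tested, except that fewer clusters entered at higher minimums. The recalculation of the within-gene share without clusters with further copies was chosen after seeing the data and gave 90.2%.

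No paired analysis was possible because the counts of the 3 libraries of each protein were pooled in 1 list, and leaving out a library was not possible for the same reason. Ratios of pairs near the minimum of 10 tags are bounded by it on a single side. A pair with 10 NOVA1 tags cannot have more NOVA1 than NOVA2 tags, and a pair with 10 NOVA2 tags cannot have fewer.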
